A study of Mus musculus with 12 samples.

Results

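The RNA of fibroblasts that had received a retrovirus for Myf5 was compared with that of fibroblasts that had received the empty vector, which codes for the green fluorescent protein hrGFP alone. The arrays were chosen by their titles: Myf5 replicates 3, 4 and 5 against hrGFP replicates 3, 4 and 5, which makes 6 of the 12 arrays of the series. The other 6 arrays, 3 with MyoD and 3 with myogenin, enter the model that estimates the spread, and their levels are given beside those of the genes described. All 4 groups are the line 2C5/7, derived from embryonic fibroblasts with the genotype myoD-/-;myf5-/-, so the vector controls lack functional MyoD and Myf5 as well. In the Myf5 virus the factor was driven by the viral LTR and hrGFP was read through an IRES on the same transcript. Cells sorted for green fluorescence were not cloned, were estimated to be 75 to 85% positive, and were grown attached in DMEM with 10% FCS. The groups are therefore mixed populations of 1 line in growth medium, and the factor's level is that of a viral promoter. The labels name hrGFP and myogenin as controls. The stated question is which genes MyoD or Myf5 changes where the cells' own copies cannot be switched on.

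Myf5 belongs to the MyoD family of basic helix-loop-helix transcription factors, with MyoD, myogenin and MRF4 (the gene Myf6). These proteins pair with E proteins such as those made from Tcf3 and Tcf12 and bind E-boxes, short DNA elements of the form CANNTG, and Id proteins block them by taking up the E proteins. Myf5 is the earliest of the family to be expressed in the mouse embryo and marks committed, still dividing myoblasts. Myogenin acts later, when myoblasts leave the cell cycle and switch on contractile genes.

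The sequence before the start of Chrnb1, the only gene called in this comparison, and of Mcpt8, the named gene with the next lowest p among those higher with Myf5, is printed because Myf5 is known as an E-box binding factor. Both were read from RefSeq promoters of the build GRCm38.p6, cover the 250 bases before the start site and run 5′ to 3′ on the gene's strand, with every CANNTG match in capitals. The Chrnb1 stretch is chr11:69795938-69796187, and the Mcpt8 stretch is chr14:56085198-56085447, both on the minus strand.
Chrnb1: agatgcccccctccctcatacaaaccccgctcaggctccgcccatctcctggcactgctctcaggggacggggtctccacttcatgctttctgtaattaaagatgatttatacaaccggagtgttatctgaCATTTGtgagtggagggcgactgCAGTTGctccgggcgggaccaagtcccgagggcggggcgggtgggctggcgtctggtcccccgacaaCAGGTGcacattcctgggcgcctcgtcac
Mcpt8: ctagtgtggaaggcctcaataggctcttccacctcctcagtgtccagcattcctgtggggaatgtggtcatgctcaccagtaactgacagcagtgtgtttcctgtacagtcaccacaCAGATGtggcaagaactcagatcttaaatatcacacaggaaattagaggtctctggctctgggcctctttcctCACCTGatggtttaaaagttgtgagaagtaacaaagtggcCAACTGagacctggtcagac

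Each stretch held 3 CANNTG matches, whose form reads the same on both strands. In Chrnb1 they began 119, 96 and 29 bases before the start site, and the match nearest to it read CAGGTG. In Mcpt8 they began 133, 60 and 20 bases before it, and the middle match read CACCTG. Of 32851 RefSeq promoters of the same length, 66.2% held at least 1 CANNTG and 12.2% held at least 3. The form CAGGTG, counted together with CACCTG, its other strand, stood once in each stretch and at least once in 17.2% of all promoters. These matches are letters in a window and were not measured as binding sites.

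Levels are given as log2(signal + 6.3) after quantile normalization, and a difference is the mean of the 3 Myf5 arrays minus that of the 3 hrGFP arrays with its standard error from limma. Probe sets with a signal above 15.0 in at least 3 of the 12 arrays were tested (8485 of 12422). The threshold for a call was an adjusted p of 0.05. Median deposited signals spanned 16.2 to 35.9 over the 12 arrays, and precision is limited by the number of arrays. The vector array hrGFP 5 stood apart. Its ratio of 3′ to 5′ signal for actin was 37.6, and MyoD 5 had 25.7, against 0.968 to 1.11 on the other 10 arrays. For Gapdh the ratio was 33.0 on hrGFP 5 and 32.4 on MyoD 5, against 0.786 to 1.03 on the others. The levels on hrGFP 5 correlated at 0.826, 0.805 and 0.831 with those on Myf5 3, 4 and 5 and at 0.823 and 0.792 with hrGFP 3 and 4, but at 0.958 with MyoD 5. Without hrGFP 5, the correlations among these arrays ran from 0.918 to 0.974. Replicates 3 and 4 of both groups formed 1 batch by chip lot and day, and replicates 5 another. The 3 myogenin arrays formed a batch of their own, so a difference from them cannot be told apart from the batch. Without the biased arrays, hrGFP 5 and MyoD 5, the difference of 50 of the 102 named genes moved by over 1.5 times or changed sign, and the value so obtained is given beside each of these.

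With Myf5 a single gene rose, Chrnb1, which codes for the beta subunit of the muscle acetylcholine receptor, the ion channel through which nerve excites muscle. It was 1 of 8485 probe sets called as higher, 0.0118%, and 0 were called as lower in limma. Without hrGFP 5 the count was 2, and without MyoD 5, which enters the shared spread, it was 3. At an unadjusted p under 0.05 there were 255 probe sets, 3.01% of those tested, 117 higher and 138 lower. The 3 Myf5 arrays and the 3 hrGFP arrays did not overlap in 735 probe sets, 8.66%.

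Chrnb1 (probe set 93705_at, chromosome 11) had deposited signals of 99.9, 38.8 and 109 on Myf5 3, 4 and 5, against 2.59, 1.86 and 6.54 on hrGFP 3, 4 and 5. Its levels were 6.57, 5.95 and 6.33 with Myf5, against 3.10, 3.13 and 3.68 with hrGFP. Every Myf5 array lay far above every vector array, and all 3 vector signals were under the 15.0 of the filter. The difference was 2.98 ± 0.30 (limma, adjusted p = 0.00244, n = 3 arrays each), or 7.91-fold on the log2(signal + 6.3) scale. Since the vector signals were low, its size depended on the constant added: it was 4.46 with none and 1.75 with one 4 times as large, and Chrnb1 was called each time. Without hrGFP 5 and MyoD 5 the difference was 3.17 ± 0.28 (limma, adjusted p = 0.000911), and within the first batch alone it was 3.15 (adjusted p = 0.016). Over all alternatives the adjusted p ran from 0.000514 to 0.0403. In RNA of a whole sorted population, more cells that use a gene and more RNA per cell cannot be told apart. Chrnb1 was also high in the other factor groups, with means of 7.10 in MyoD and 6.34 in myogenin arrays, the latter a batch of their own. Its level with Myf5 was 0.82 below that with MyoD without passing the test (limma, adjusted p = 0.937).

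**Figure D1:**
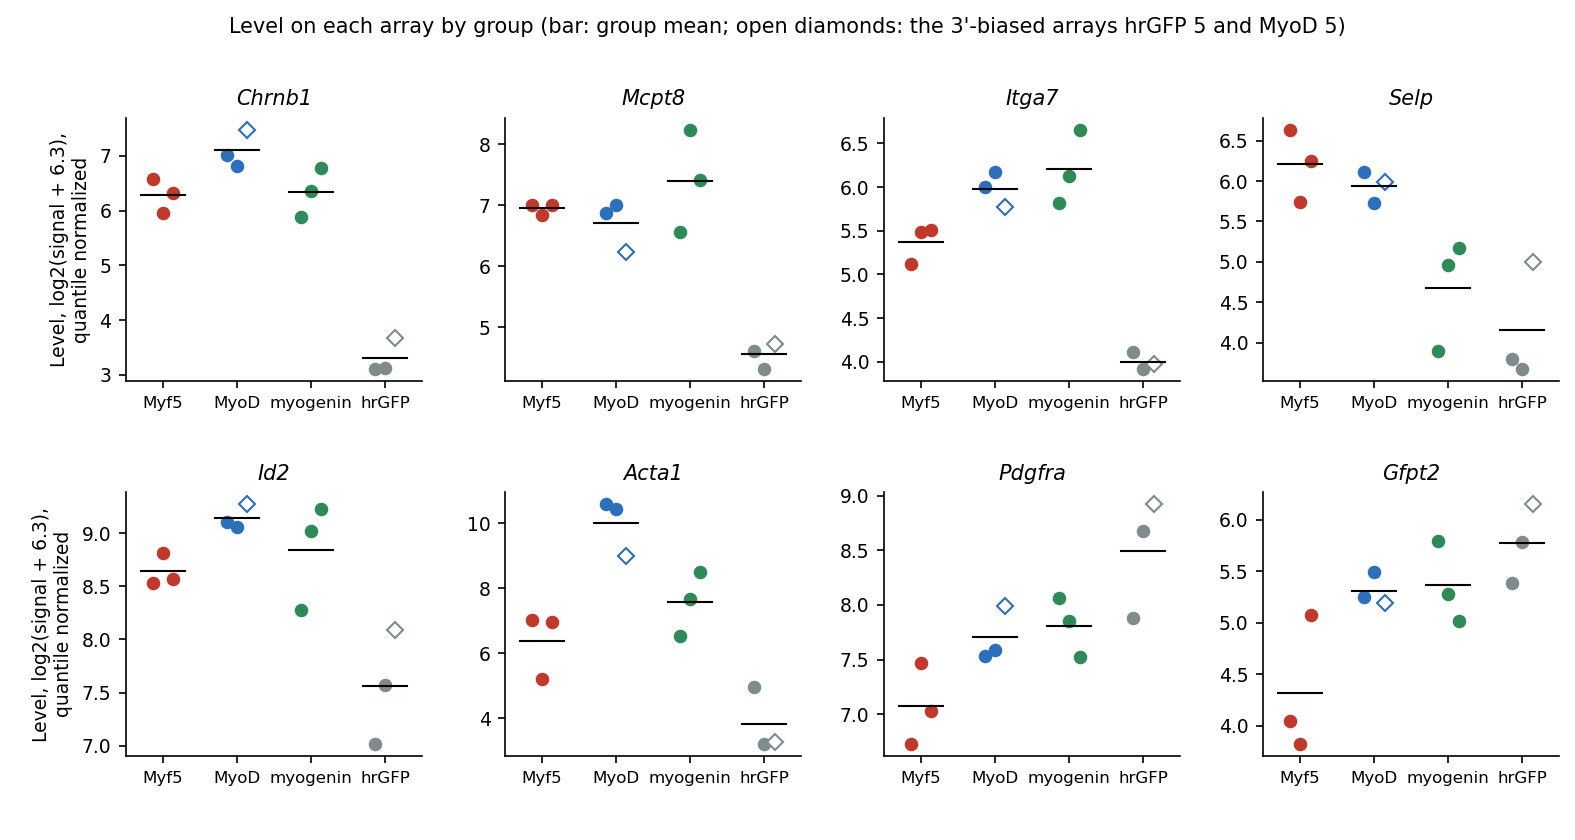
Level of 8 genes on each array, as log2(signal + 6.3) after quantile normalization, with 1 point per array and a bar at the mean of the 3 arrays of a group. Open diamonds are the 3′-biased arrays hrGFP 5 and MyoD 5. For Chrnb1 the Myf5 arrays lie between 5.95 and 6.57 and the hrGFP arrays between 3.10 and 3.68. In all 8 panels the Myf5 and hrGFP points do not overlap, which the rule that named these genes required.

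The other genes of the acetylcholine receptor and the neuromuscular junction gave no second call. Of 19 measured genes of this list, 14 passed the filter, 1 rose and 0 fell, and only Chrnb1 had an unadjusted p under 0.05. The median difference over the 19 was -0.075, beside -0.031 over all 8251 measured genes. The 3 Myf5 arrays lay above the 3 hrGFP arrays for 3 of them and below for 1, where 3.96% and 4.67% of all measured genes did so. Chrng, the gamma subunit of the embryonic receptor, had 4.69, 5.72 and 4.89 with Myf5, against 3.48, 4.26 and 3.86 with hrGFP (probe set 95639_at). The difference was 1.23 ± 0.82 (limma, adjusted p = 0.973), and a further probe set of Chrng gave 0.38 ± 0.39. Chrna1, the alpha subunit that binds acetylcholine, differed by 0.28 ± 0.32, and all its levels with Myf5 were under the filter's level of 4.42, at 3.05 to 3.87. Chrnd, the delta subunit, differed by 0.25 ± 0.47. Chrne, the subunit of the adult receptor, differed by -0.72 ± 0.68 and, without the biased arrays, by -1.24. Its further probe set that passed the filter gave -0.90. Rapsn, which anchors the receptor, differed by 0.31 ± 0.34. So 1 receptor subunit passed the test, and none of the others named did.

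Mcpt8, a serine protease gene known from basophils, came next among the named genes. Its levels were 7.00, 6.83 and 7.01 with Myf5, against 4.62, 4.31 and 4.73 with hrGFP, a difference of 2.40 ± 0.37 (limma, adjusted p = 0.0696). It was not called in the model without pairing, but was with a block for the replicate number (adjusted p = 0.0176) and within the first batch (2.45, adjusted p = 0.0198). Over all alternatives its adjusted p ran from 0.0176 to 0.493. A further probe set of Mcpt8 did not pass the filter and differed by 0.12. MyoD and myogenin arrays had means of 6.71 and 7.40 for Mcpt8.

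Deviations from the group means correlated at 0.12, 0.33 and 0.11 between Myf5 and hrGFP arrays numbered 3, 4 and 5. The differently numbered Myf5 5 and hrGFP 3 had 0.15, so pairing by number was weak outside replicate 4. When the fit held this number as a block, 4 probe sets rose, 0.0471% of those tested. They were Chrnb1, Mcpt8, 97519_at and 100566_at. The table of the array does not list 97519_at, which is unnamed here, and gives several genes for 100566_at. Probe set 97519_at had 10.74, 10.89 and 10.80 with Myf5, against 8.13, 8.33 and 9.25 with hrGFP. That difference of 2.24 ± 0.32 just missed the threshold without the block (limma, adjusted p = 0.0501, 0.00696 with it) and passed without hrGFP 5 and MyoD 5 (2.58, adjusted p = 0.00334), with a range of 0.0013 to 0.977 over the alternatives. Probe set 100566_at had 6.13, 6.85 and 5.91 with Myf5, against 3.14, 4.24 and 3.19 with hrGFP, a difference of 2.77 ± 0.50 (limma, adjusted p = 0.231, 0.0037 with the block, and 0.0037 to 0.722 over the alternatives). Within the first batch the 4 called were Chrnb1, Mcpt8, 97519_at and 93028_at, again 0.0471%. The last, for which several genes are listed, had 7.41, 6.88 and 7.32 with Myf5, against 4.76, 4.65 and 4.99 with hrGFP, a difference of 2.40 ± 0.53 (limma, adjusted p = 0.673, 0.0198 within the first batch, and 0.0198 to 0.998 over the alternatives). Without hrGFP 5 and MyoD 5 there were 2 calls, 0.0236%, Chrnb1 and 97519_at. These probe sets outside the naming rule were singled out because they were called in an alternative.

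**Figure D2:**
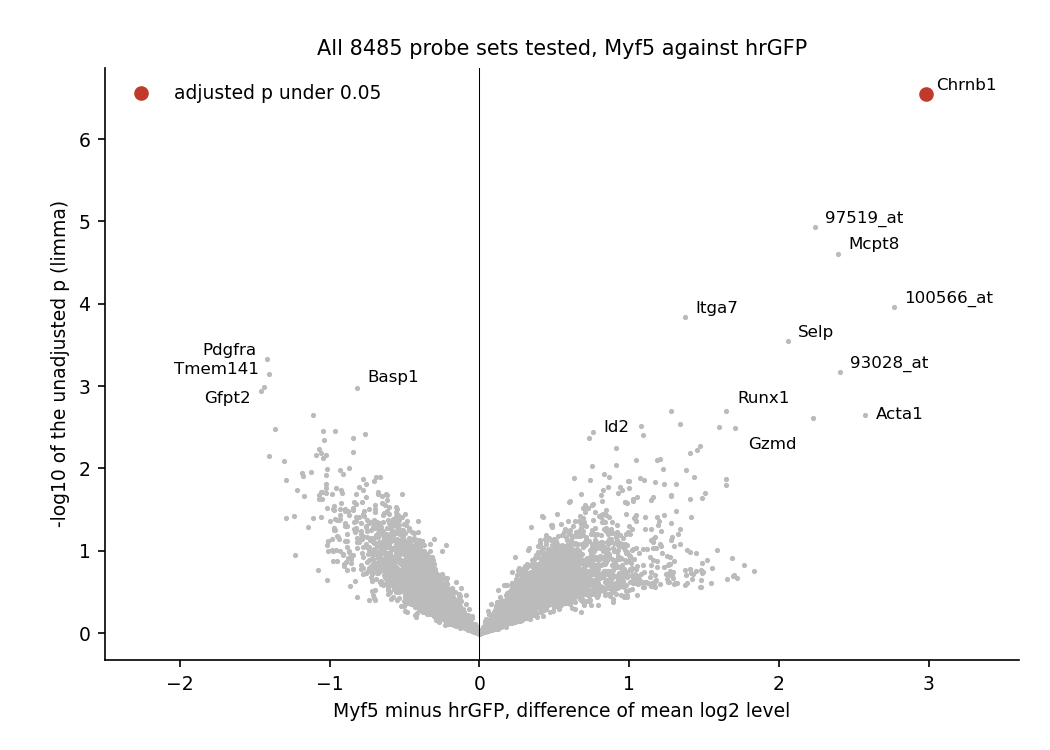
Each point is 1 of the 8485 probe sets tested, with the difference of mean log2 level, Myf5 minus hrGFP, on the x axis and -log10 of the unadjusted limma p on the y axis. The filled red point is Chrnb1, the only probe set with an adjusted p under 0.05, and Mcpt8 and the probe set 97519_at lie nearest to it.

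The remaining 10 of the 12 genes with the lowest p among those higher with Myf5 did not pass the test, and their arrays did not overlap because the naming rule asked for it. Itga7, the alpha chain of a laminin-binding integrin of muscle, had 5.12, 5.48 and 5.51 with Myf5, against 4.11, 3.91 and 3.98 with hrGFP, a difference of 1.37 ± 0.25 (limma, adjusted p = 0.244). A second probe set of Itga7 differed by 1.28 ± 0.49, with 1 vector array at 5.34 beside the Myf5 arrays, and another that did not pass the filter differed by 0.071. Selp, the adhesion molecule P-selectin of platelets and endothelium, had 6.64, 5.75 and 6.25 with Myf5, against 3.79, 3.67 and 4.99 with hrGFP. Its difference was 2.06 ± 0.41, and its adjusted p in limma ran from 0.0624, without hrGFP 5 and MyoD 5, to 0.998 over the alternatives. Acta1, skeletal alpha-actin of the thin filament, differed by 2.58 ± 0.67, with 7.02, 5.19 and 6.95 in Myf5 arrays and 4.97, 3.21 and 3.25 in hrGFP arrays. Replicate 4 was the lowest array of its group for Acta1 in both. Tnnc1, the calcium-binding troponin of slow and cardiac fibres, differed by 1.60 ± 0.44. Id2, an inhibitor that takes up E proteins, had 8.53, 8.81 and 8.57 with Myf5, against 7.02, 7.57 and 8.09 with hrGFP, a difference of 1.08 ± 0.29, and of 1.34 without the biased arrays. Runx1, a transcription factor, differed by 1.65 ± 0.42, Snw1, a splicing and transcription cofactor, by 2.23 ± 0.59, and Gmip by 1.34 ± 0.36. A further probe set of Snw1, which did not pass the filter, went the other way at -0.28. Cryge, a lens crystallin, differed by 1.28 ± 0.33, while its further probe sets gave 0.67, 0.0059 and, below the filter, 0.0060. Gzmd, a granzyme, differed by 1.71 ± 0.47, and its probe set is of a type whose probes are shared within a gene family. The probe sets given first for Itga7 and Cryge, and that of Ndrg4 among the lower genes, are of the same type. From Cryge to Gzmd in order of p, all had an adjusted p of 0.973.

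No gene was called as lower with Myf5. The named gene of lowest p was Pdgfra, the alpha receptor of platelet-derived growth factor, which marks fibroblasts and other mesenchymal cells. Pdgfra had 6.73, 7.47 and 7.02 with Myf5, against 7.88, 8.68 and 8.92 with hrGFP. The groups did not overlap, which the naming rule asked of all 12 lower genes. The difference was -1.42 ± 0.30 (limma, adjusted p = 0.564), and it was -1.21 without hrGFP 5 and MyoD 5. MyoD and myogenin arrays averaged 7.70 and 7.81 for Pdgfra, between the means of 7.07 with Myf5 and 8.49 with hrGFP. The further probe sets of Pdgfra differed by 0.18 ± 0.55 and, below the filter, by 0.32, so the probe sets of Pdgfra disagreed in sign. Gfpt2, an enzyme of hexosamine synthesis, had 4.04, 3.82 and 5.08 with Myf5, against 5.38, 5.79 and 6.15 with hrGFP, a difference of -1.46 ± 0.35. The membrane protein gene Tmem141 differed by -1.40 ± 0.31, and Aanat, the enzyme that sets the rate of melatonin synthesis, by -1.36 ± 0.38. A further probe set of Aanat, below the filter, went the other way at 0.27. Basp1, a membrane-bound protein of growth cones, differed by -0.82 ± 0.19 at a high level, 9.28 to 9.88 with Myf5 and 10.24 to 10.66 with hrGFP. The transcription factor gene Ebf1 differed by -0.84 ± 0.24, the endocytic kinase gene Aak1 by -0.76 ± 0.21 and the mannosidase gene Man1a by -1.04 ± 0.29. Ndrg4 differed by -0.96 ± 0.27, the ubiquitin ligase gene Znrf4 by -1.11 ± 0.29, Gdap2 by -1.04 ± 0.30 and Ctnnd2, a catenin of neural junctions, by -1.07 ± 0.32. Further probe sets that passed the filter gave -0.17 for Basp1, -0.29 for Ndrg4, -0.36 for Man1a and -0.62 for Aak1. The adjusted p of these 12 genes in limma ran from 0.564 to 0.973.

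**Figure D3:**
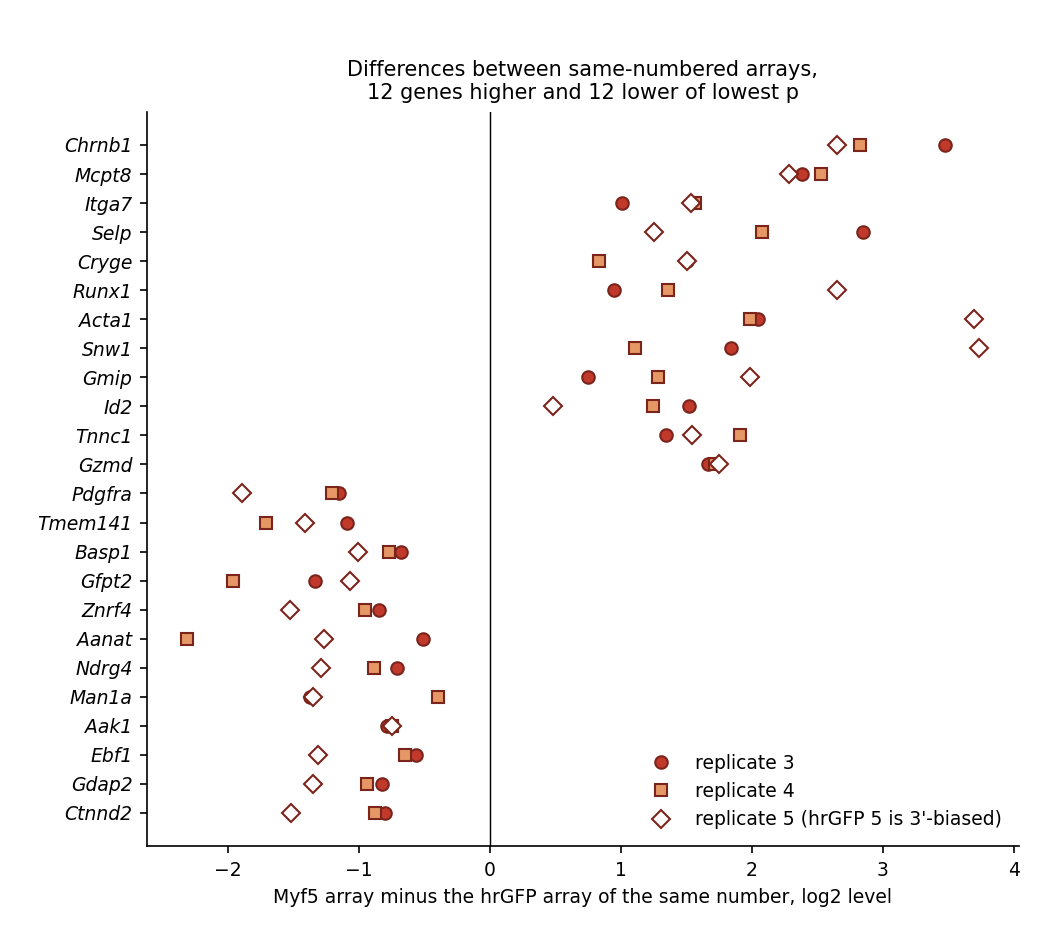
Difference between each Myf5 array and the hrGFP array of the same number, in log2 level, for the 12 genes higher and the 12 lower with Myf5 that had the lowest p. Circles, squares and open diamonds are replicates 3, 4 and 5. For Chrnb1 the 3 differences are 3.48, 2.82 and 2.65, and for Pdgfra they are -1.15, -1.21 and -1.90.

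Taken by number, the 3 pairs differed in their spread. The SD of the differences over 8485 probe sets was 0.43 in replicates 3, 0.56 in replicates 4 and 0.95 in replicates 5, the pair with hrGFP 5. Differences above 1 numbered 195, 400 and 1196 in these pairs, and differences below -1 numbered 168, 320 and 742. In all 3 pairs 17 probe sets exceeded 1 and 5 were under -1, and only Chrnb1 among them was called. The differences of Mcpt8 were 2.38, 2.53 and 2.28, and those of 93028_at 2.66, 2.23 and 2.32. Muscle genes in this set were Acta1 at 2.05, 1.99 and 3.70, Tnnc1 at 1.34, 1.91 and 1.54, Tnnt3, a fast-fibre troponin, at 1.12, 1.44 and 1.58, and Chrng at 1.22, 1.46 and 1.03. It also held Itga7, Selp, Snw1, Gzmd, Akap8l, Pcgf2 and Tubg2 above 1, and further probe sets without a single gene symbol. Among the 5 under -1 were Pdgfra, Tmem141, Gfpt2 and Nin, a centrosome protein gene, at -1.41, -1.16 and -1.35. The set was selected by its size in these arrays, so it is a description and no test.

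None of the probe sets of the MyoD family was called. The Myf5 probe set had signals of 79.6, 27.4 and 125 on the Myf5 arrays, against 77.2, 27.1 and 143 on the hrGFP arrays, a difference of -0.17 ± 0.37 (limma, adjusted p = 0.973), and of 0.18 without the biased arrays. The labels do not say which part of the gene the virus carried or which part the knockout allele leaves, so this probe set does not check that the factor was made. Myod1 differed by -0.020 ± 0.27, or -0.10 without the biased arrays, and Myf6 by -0.54 ± 0.47. Myog, the gene of myogenin, had 6.33, 6.18 and 6.35 with Myf5, against 4.78, 5.96 and 5.80 with hrGFP. Its Myf5 arrays were all above the vector arrays, but the difference of 0.78 ± 0.47 did not pass the test, and its mean with MyoD was 8.38. Of 20 measured genes of myogenic factors and their partners 17 passed the filter, and limma called 0 in either direction and 1 at an unadjusted p under 0.05. That one was Tcf12, an E protein gene, which differed by -0.51 ± 0.23. The median difference of these 20 genes was -0.11.

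None of the contractile genes passed the test. Of 38 measured genes of the sarcomere 27 passed the filter, and limma called 0 as higher and 0 as lower. At an unadjusted p under 0.05, where 3.01% of all probe sets tested fell, there were 4 higher, Acta1, Tnnc1, Tnnt3 and Ankrd1, and 2 lower, Myh4 and Tnnc2. The Myf5 arrays lay above the vector arrays for 6 of the 38 and below for 3, against 3.96% and 4.67% of all measured genes. The median difference was 0.060, or 0.027 without hrGFP 5. Tnnt3 had 4.33, 4.64 and 4.45 with Myf5, against 3.21, 3.20 and 2.87 with hrGFP, a difference of 1.38 ± 0.46. Those Myf5 levels are close to the 4.42 of the filter. Myh3, the embryonic myosin heavy chain, differed by -0.024 ± 0.44, and Des, desmin of the muscle cytoskeleton, by 0.48 ± 0.32. Myh4, a fast myosin heavy chain, differed by -0.98 ± 0.37, and Tnnc2 by -0.77. Further probe sets gave -0.097 for Myh4 and, with the opposite sign, 0.19 for Tnnc2.

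Among 21 measured genes of muscle energy metabolism 12 passed the filter and 0 were called in limma, with 1 at an unadjusted p under 0.05. That gene was Eno3, the muscle enolase of glycolysis, with 8.02, 7.68 and 7.92 in Myf5 arrays and 6.95, 7.12 and 5.99 in hrGFP arrays. Its difference was 1.19 ± 0.37, and 0.84 without hrGFP 5 and MyoD 5. The difference was above 0 for 16 of the 21 genes and below for 5, with a median of 0.17. Over all 8251 measured genes it was above 0 for 3774 and below for 4475. Pfkm, the muscle phosphofructokinase, differed by 0.97 ± 0.84, but by 0.22 without hrGFP 5 and MyoD 5, where its level was 3.75 on hrGFP 5 alone. Adssl1, the muscle adenylosuccinate synthase, differed by -0.48 ± 0.38, and Ckm, muscle creatine kinase, by 0.22 ± 0.31. Of 16 measured genes of calcium handling and excitation 14 passed the filter and 0 were called, also 0 at an unadjusted p under 0.05. In that group Ryr1, the calcium release channel, differed by 0.69 ± 0.37, Sln, an inhibitor of the calcium pump, by 0.60 ± 0.48, and Clcn1, the chloride channel, by -0.52 ± 0.47. Without the biased arrays Sln gave 0.30 and Clcn1 -1.01, and a further probe set of Clcn1 below the filter gave 0.085. In the laminin receptor, dystrophin complex and fusion list 30 of 33 measured genes passed and 0 were called in limma, with Itga7 alone at an unadjusted p under 0.05. Bsg, basigin of the cell surface, differed by 0.47 ± 0.39, but by 0.051 without the biased arrays. Sgca, alpha-sarcoglycan, differed by -0.58 ± 0.61, and its further probe set by -0.12.

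Genes known to hold back myogenesis gave 0 calls in limma among 24 measured, 21 of which passed the filter. Id2 and Dlk1 had an unadjusted p under 0.05, as did 3.01% of all probe sets tested. Id1 had 9.16, 9.20 and 9.15 with Myf5, against 8.54, 8.73 and 6.59 with hrGFP, a difference of 1.21 ± 0.58, and Id3 differed by 0.71 ± 0.45. For Id1 and Id3 the lowest vector array was hrGFP 5, whereas for Id2 it was the highest. Id1 differed by 0.53 and Id3 by 0.29 without the biased arrays. Of 58 measured genes of the cell cycle and DNA replication 56 passed, and 0 were called or had an unadjusted p under 0.05 in limma. The median difference was 0.059, or 0.11 without hrGFP 5, where that of all measured genes was 0.012. With all arrays the difference was above 0 for 40 genes and below for 18, beside the 3774 above and 4475 below over all measured genes. Tk1, thymidine kinase, differed by 0.81 ± 0.59, Plk1, a mitotic kinase, by 0.74 ± 0.61, and Pola2, of DNA polymerase alpha, by 0.63 ± 0.58. Without the biased arrays Tk1 gave 0.11, Plk1 -0.054 and Pola2 -0.15. The further probe sets gave -0.78 for Tk1, -0.13 and 1.20 for Plk1, and -0.16 for Pola2, so those of all 3 genes disagreed in sign. Of 25 measured genes of cell cycle exit 23 passed and 0 were called, also 0 at an unadjusted p under 0.05. Ccnd3, cyclin D3, differed by 1.01 ± 0.69, the stress gene Gadd45g by 1.16 ± 0.71 and Rbl1, a retinoblastoma relative, by -0.59 ± 0.37. These 3 gave 0.13, 0.49 and -0.25 without the biased arrays.

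Signalling genes were also without calls in limma, and their counts at an unadjusted p under 0.05 stand beside 3.01% of all probe sets tested. In growth factor receptors 35 of 44 measured genes passed and 2 had an unadjusted p under 0.05, both lower, Pdgfra and Flt4. Flt4, a receptor for vascular endothelial growth factors, differed by -0.70 ± 0.32, and Ddr1, a collagen receptor kinase, by 0.82 ± 0.43, or 0.43 without the biased arrays. Of 14 measured genes of insulin-like growth factor signalling 11 passed, and Igf2, a growth factor of embryo and myoblast, was the one with an unadjusted p under 0.05. It had 5.42, 6.19 and 5.96 with Myf5, against 4.98, 4.85 and 4.76 with hrGFP, a difference of 0.998 ± 0.35, and its mean with myogenin was 7.57. Mest, an imprinted gene, differed by 0.51 ± 0.36, or 0.30 without the biased arrays, and Igfbp2, a binding protein of the system, by -0.40 ± 0.30. In TGF-beta, activin and BMP signalling 22 of 32 passed and 2 had an unadjusted p under 0.05, Inhbb and Smad6, both higher. Inhbb, an activin subunit, differed by 1.05 ± 0.33 and Nbl1, a BMP antagonist, by 1.09 ± 0.60, or 0.58 without the biased arrays. Grem1, another BMP antagonist, differed by 1.47 ± 1.29 with a level of 4.06 on hrGFP 5 beside 8.65 and 8.93 on hrGFP 3 and 4, and by -0.10 without hrGFP 5 and MyoD 5.

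Mcpt8 and Gzmd belong to a list of granule proteases and granzymes, of which 20 genes were measured and 8 passed. Of these limma called 0, and the median over the 20 was 0.052. At an unadjusted p under 0.05, where 3.01% of all probe sets tested fell, there were 2 higher and 1 lower. The 2 higher were Mcpt8 and Gzmd, already named for their low p. Tpsb2, a tryptase of mast cells, had 5.05, 5.00 and 5.16 with Myf5, against 5.59, 6.71 and 5.83 with hrGFP, a difference of -0.97 ± 0.39. Mcpt8 was set beside 9 other genes that mark mast cells and basophils, of which 3 passed the filter and 0 were called, with Tpsb2 alone at an unadjusted p under 0.05. Their summed signal ran from 101 to 140 on the Myf5 arrays and from 134 to 204 on the hrGFP arrays. The defining genes Fcer1a, Ms4a2, Kit and Cpa3 had mean levels of 2.97, 3.69, 3.47 and 3.24 with Myf5, all under the 4.42 of the filter. Cma1 differed by -0.28 ± 0.32 and Gata2 by 0.047 ± 0.21, and without the biased arrays by 0.082 and 0.15.

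Matrix genes gave no call. Of 47 measured collagen and matrix genes 41 passed, and 0 were called or had an unadjusted p under 0.05 in limma, with a median of 0.046. Thbs3, a thrombospondin, differed by 1.34 ± 0.63, Tnc, tenascin C, by 0.87 ± 0.44 and Nid1, nidogen of basement membrane, by -0.81 ± 0.42. Without the biased arrays these 3 gave 0.60, 0.54 and -0.36, and a further probe set of Tnc gave 0.23. Of 27 measured matrix proteases and inhibitors 25 passed, with 0 called. An unadjusted p under 0.05 was found for 2, 1 in each direction, and for 3.01% of all probe sets tested. Serpinf1 differed by 1.18 ± 0.65, Serpinh1, the collagen chaperone, by 1.03 ± 0.76 and Pcolce, which enhances procollagen processing, by 0.99 ± 0.70. Each of these 3 had its lowest level of the 6 arrays on hrGFP 5, at 7.90, 6.61 and 7.53, and without the biased arrays they differed by 0.32, 0.18 and 0.16. A further probe set of Serpinf1 went the other way at -0.98. Of 14 measured smooth muscle genes 11 passed and 0 were called, also 0 at an unadjusted p under 0.05. In that list the median was 0.21 and, without hrGFP 5, 0.0034. Csrp1 differed by 1.06 ± 0.78, Smtn, smoothelin, by 0.72 ± 0.58 and Tagln, transgelin, by 0.52 ± 0.66, and without the biased arrays these 3 gave 0.22, 0.29 and -0.18.

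The lists of interferon response, chemokines and cytokines, heat shock, and immediate early genes had medians of -0.087, -0.095, -0.043 and -0.044 over 27, 37, 28 and 24 measured genes. Of these, 12, 17, 26 and 23 passed the filter, limma called 0 in each, and only Il6 had an unadjusted p under 0.05. Il6, an inflammatory cytokine, had 4.09, 4.54 and 4.32 with Myf5, against 3.17, 3.30 and 3.27 with hrGFP, a difference of 1.07 ± 0.37 at levels around that of the filter. Ccl8 differed by 0.94 ± 0.51 and Csf1, the macrophage growth factor, by 0.74 ± 0.41, or 0.36 without the biased arrays. Ifit3, Eif2ak2 and B2m, all induced by interferon, differed by -0.64 ± 0.39, -0.48 ± 0.30 and -0.33 ± 0.27, the last by -0.029 without the biased arrays. Hspa1a, an inducible chaperone, differed by -0.56 ± 0.42, Txnrd1, thioredoxin reductase, by 0.54 ± 0.38 and Atf4, a stress transcription factor, by 0.51 ± 0.38. Txnrd1 gave 0.19 and Atf4 0.069 without the biased arrays. Fosl1, Ccn1 and Junb differed by 0.65 ± 0.58, 0.64 ± 0.77 and 0.61 ± 0.40, and without the biased arrays they gave -0.018, -0.059 and 0.20.

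**Figure D4:**
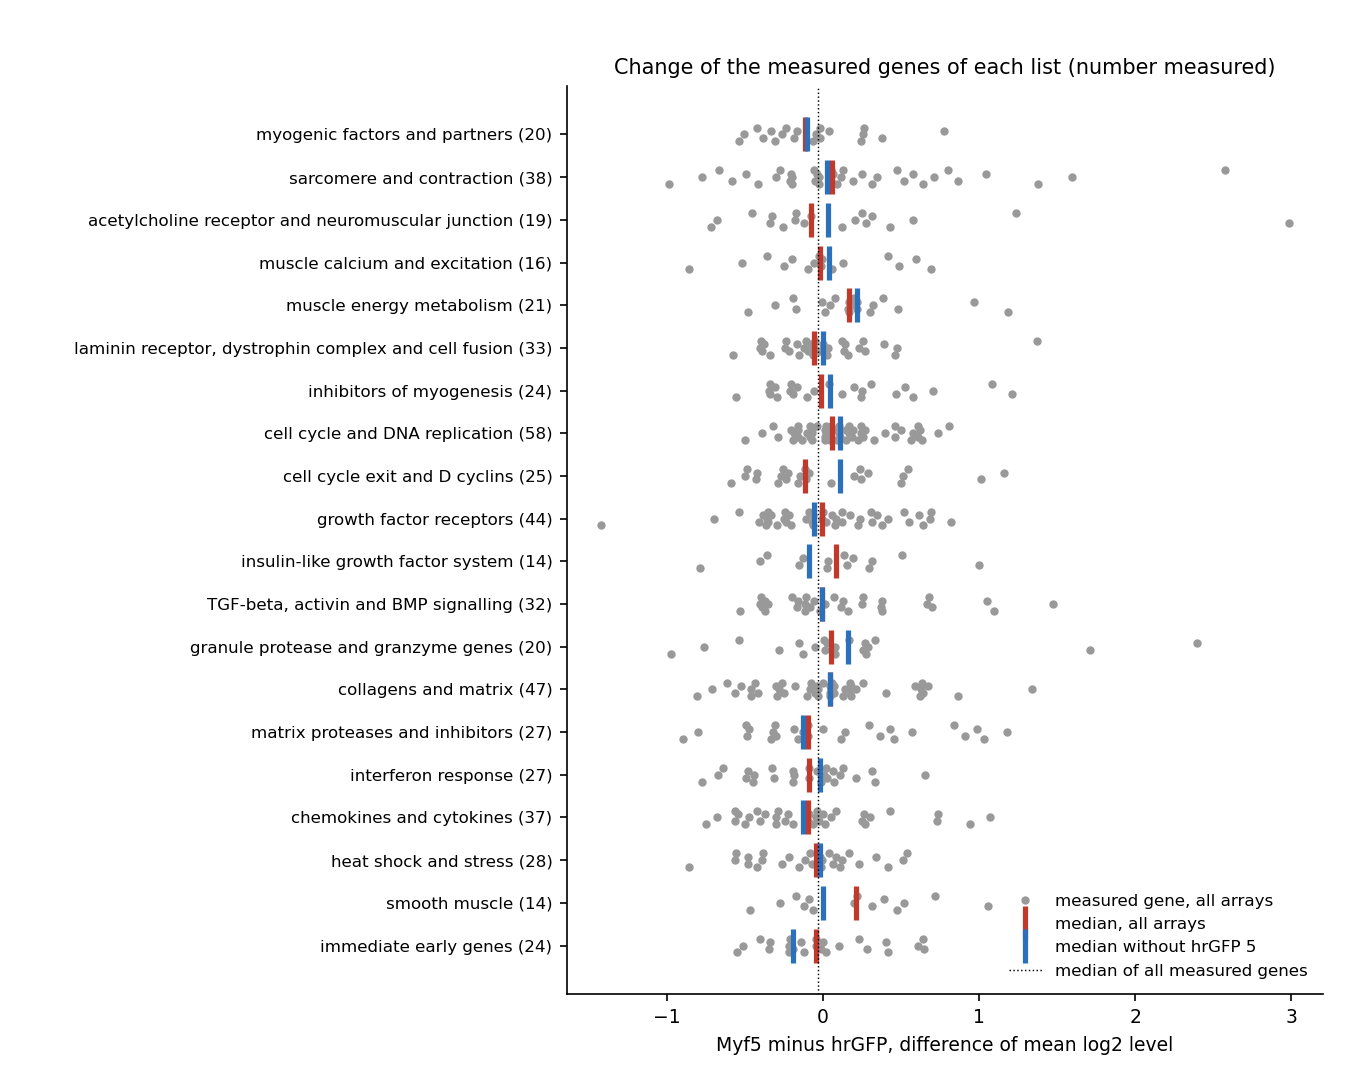
Myf5 minus hrGFP in mean log2 level for the measured genes of the 20 lists, 1 grey point per gene, with the number measured beside each list. Red and blue bars are the list's median over all arrays and without hrGFP 5, and the dotted line is the median of all 8251 measured genes, -0.031. The medians lie between -0.12 and 0.21 over all arrays, and the points farthest right are Chrnb1, Acta1 and Mcpt8.

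The label of the cells was set against markers. All 10 fibroblast markers passed the filter, with 0 called or at an unadjusted p under 0.05 in limma and a median difference of 0.0076. Their mean level ran from 8.01 to 8.58 on the Myf5 arrays and from 7.98 to 8.38 on the hrGFP arrays. Dcn, decorin, differed by -0.43 ± 0.47, Pdgfrb, the beta receptor of platelet-derived growth factor, by 0.42 ± 0.59, S100a4 by -0.32 ± 0.21 and Thy1 by -0.074 ± 0.22. Dcn gave -0.29, Pdgfrb -0.11 and S100a4 -0.18 without the biased arrays. In the marker lists of other cell types 4 of 8 cardiac, 5 of 6 adipocyte, 1 of 5 cartilage and bone, 3 of 9 T and NK cell, 6 of 10 macrophage, 2 of 8 endothelial, 2 of 8 epithelial and 2 of 8 neural markers passed, with 0 called. Laptm5, a macrophage marker that differed by -0.62 ± 0.23, was the only one of these with an unadjusted p under 0.05. The cardiac markers Nppb, Mybpc3 and Gata4 differed by -0.58 ± 0.29, -0.42 ± 0.53 and -0.25 ± 0.42. The adipocyte markers Lep, Cebpa and Pparg differed by -0.53 ± 0.31, 0.49 ± 0.50 and 0.23 ± 0.38, and the bone marker Ibsp by 0.24 ± 0.52. Cd4 and Zap70 of T cells differed by 0.62 ± 0.37 and 0.12 ± 0.43, and Cd14 and Csf1r of macrophages by -0.50 ± 0.26 and -0.35 ± 0.36. Kdr and Eng of endothelium gave 0.62 ± 0.44 and -0.076 ± 0.29, Krt18 and Cdh1 of epithelium -0.17 ± 0.39 and -0.048 ± 0.29, and Tubb3 and Gfap of neural cells 0.33 ± 0.35 and 0.045 ± 0.34. Without the biased arrays Gata4 gave -0.62, Cebpa -0.18, Pparg 0.41, Ibsp -0.015, Csf1r -0.53, Eng 0.065, Krt18 -0.32, Cdh1 -0.099, Tubb3 -0.081 and Gfap -0.037. Of these markers, Ibsp, Zap70, Krt18 and Gfap each had a further probe set below the filter with the opposite sign, at -0.19, -0.14, 0.036 and -0.11.

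How the Myf5 cells stood beside the MyoD cells was tested in the same model, where the vector means cancel. Relative to MyoD, 19 probe sets were lower with Myf5, 0.224% of 8485, and 0 were higher in limma. The 18 with 1 gene symbol belong to 17 genes, 9 of them of the sarcomere and 3 of the acetylcholine receptor and neuromuscular junction. Actc1, cardiac alpha-actin, averaged 3.91 with Myf5, 8.53 with MyoD and 3.07 with hrGFP by probe set 101028_i_at. Its difference between Myf5 and MyoD was -4.62 ± 0.50 (limma, adjusted p = 0.00284). A further tested probe set of Actc1, 101029_f_at, was not called. Tnnc1 averaged 5.33, 9.19 and 3.73 in these groups, a difference of -3.86 ± 0.44 between Myf5 and MyoD. Thus the level of Tnnc1 with Myf5 lay nearer the vector than MyoD, and for Tnnt1, a slow-fibre troponin at 3.59, 6.86 and 3.47, and Myh3, at 3.36, 6.77 and 3.39, it was close to the vector's. Chrna1 and Chrng, the second by probe set 161215_at, were 2.17 ± 0.32 and 2.54 ± 0.39 lower with Myf5 than with MyoD, with adjusted p of 0.0151 and 0.0167 in limma. The tested probe sets 95639_at of Chrng and 101383_at of Tnnt1 were not called in this comparison. Chrnb1 differed in the same direction, by -0.82 ± 0.30, and did not pass that test (limma, adjusted p = 0.937). Also called as lower with Myf5 than with MyoD were Tnnt3, Tnnc2, Myl1, Myl4, Mylpf, Erbb3, Sgca, Smyd1, Atp2a1, Hspb2 and Peg3. Their differences from MyoD ran from -3.70 to -1.69. In each called probe set the mean with MyoD also lay above that with hrGFP, so this is no fall below the vector. The count varied with single arrays: it was 4 without MyoD 3 or MyoD 4, 31 without MyoD 5, and 6, 12 and 5 without Myf5 3, 4 and 5. It was 29 without the 3′-biased MyoD 5 and hrGFP 5. Of those 29, only 14 were among the 19, and 1 was higher with Myf5. Of the 31 without MyoD 5, 17 were among the 19, and 1 was higher with Myf5.

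**Figure D5:**
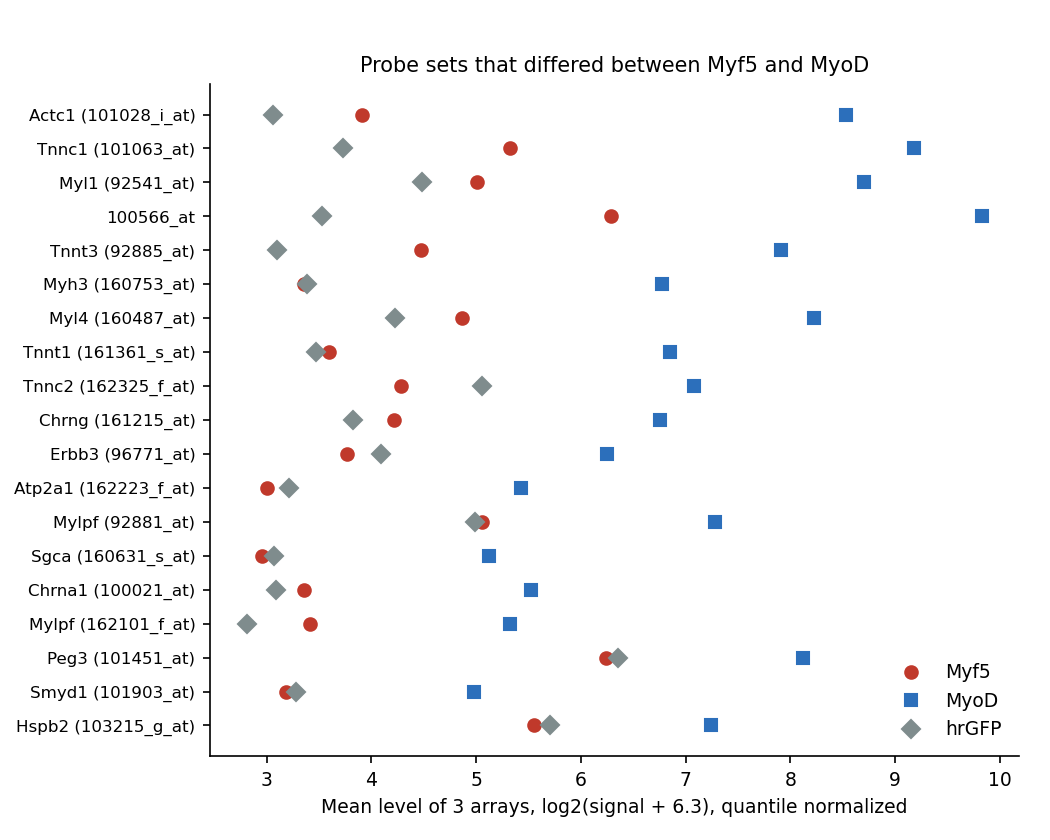
Mean level of 3 arrays, as log2(signal + 6.3) after quantile normalization, of the 19 probe sets that differed between Myf5 and MyoD, with Myf5 as red circles, MyoD as blue squares and hrGFP as grey diamonds. For each probe set MyoD lies highest, as for Actc1 (101028_i_at) with 3.91 in Myf5, 8.53 in MyoD and 3.07 in hrGFP arrays.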

How the data were processed

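The authors deposited 1 table of intensity values, a signal per probe set of the MG_U74Av2 array, produced by MAS5 (per the submitters' processing notes, with version and scaling not given in the sources used here). Per the file headers, experiment information files give other information, chip lot and hybridization day, which was used for batches. From the 12488 probe sets 66 array controls were left out. A constant of 6.3, their 25th percentile, was added, and log2 values were quantile normalized. Probe sets above the 40th percentile, 15.0, in at least 3 arrays were fitted in limma 3.58.1 (R 4.3.3, statmod 1.5.0) with 1 mean per group over 12 arrays, 8 residual degrees of freedom, a variance trend and Benjamini-Hochberg adjustment; the script was tested on simulated data.

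Of the probe sets, 10833 have 1 gene symbol in the array table supplied, 396 several and 1193 none; only the first are named. Members and lists were chosen with earlier results of these data known. Genes named are the 12 higher and 12 lower of lowest p with 1 symbol and groups that do not overlap, the MyoD family, and up to 3 tested genes of largest change per list; other names were chosen after their values were seen. Deviations of same-numbered Myf5 and hrGFP arrays from their group means correlated at 0.12, 0.33 and 0.11, each over 0.1. Those of differently numbered arrays correlated at 0.15 for Myf5 5 with hrGFP 3 and at most 0.061 otherwise. The main fit did not pair arrays by these numbers, which the titles give. Pairing entered only as an alternative, with the number as a block. The labels do not say that replicates are separate cultures, so p-values measure the spread between these samples, which may be technical. The files give Myf5 5 and hrGFP 5 the same laboratory code; no columns were identical.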

Additional observations from a re-analysis of the deposited data

How the results depend on the processing

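Of 21 alternatives, 20 were planned and 1, the 9 arrays without myogenin, was chosen after seeing the data. Chrnb1 was called in each, with adjusted p from limma of 0.000514 to 0.0403. The count for Myf5 minus hrGFP, 1, was 4 with the replicate block and within array batch 1, 3 with no pseudocount, the array batch as a block, the 6 arrays alone or the 9 arrays, and 2 with the pseudocount 4 times as large, no filter, or without hrGFP 5 and MyoD 5. Leaving out 1 array gave 1 to 3: 2 without hrGFP 5 and 3 without MyoD 5. The count for Myf5 minus MyoD, 19, was 7 with no pseudocount, 10 with the filter in at least 6 arrays, 11 with the 6 arrays alone, 29 without hrGFP 5 and MyoD 5, and 4 to 31 leaving out 1 array. With no filter, 1 probe set unnamed here (98420_at) was called as lower (3.26, 3.07 and 3.29 with Myf5, against 4.33, 4.53 and 4.37 with hrGFP). With the replicate block Myf5 minus MyoD had 17 calls, 13 of them among the 19, and of the named genes Mcpt8 alone changed its call for Myf5 minus hrGFP. Over 101 named genes and 21 alternatives, 2041 values kept direction and side of the threshold, 7 moved past it, all of Mcpt8, and 57 of 22 uncalled genes changed sign; the cause was not tested.

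Signs changed with no normalization for Myod1 (0.12), Eng (0.067) and Cdh1 (0.11). Within array batch 1 they changed for Plk1 (-0.064), Pola2 (-0.090), Tagln (-0.36), Fosl1 (-0.15), Ccn1 (-0.26), Cma1 (0.29), Eng (0.18), Tubb3 (-0.083) and Gfap (-0.26). Without hrGFP 5 and MyoD 5 they changed for Myf5 (0.18), Plk1 (-0.054), Pola2 (-0.15), Grem1 (-0.10), Tagln (-0.18), Fosl1 (-0.018), Ccn1 (-0.059), Pdgfrb (-0.11), Cebpa (-0.18), Ibsp (-0.015), Cma1 (0.082), Eng (0.065), Tubb3 (-0.081) and Gfap (-0.037). Leaving out 1 array gave -0.059 to 1.41 for Ccn1, -0.21 to 0.16 for Cdh1, -0.18 to 0.83 for Cebpa, -1.24 to 0.15 for Chrne, -1.01 to 0.084 for Clcn1, -0.49 to 0.082 for Cma1, -0.25 to 0.065 for Eng, -0.018 to 1.21 for Fosl1, -0.049 to 0.15 for Gata2, -0.62 to 0.21 for Gata4, -0.18 to 0.17 for Gfap, -0.10 to 2.33 for Grem1, -0.16 to 0.81 for Ibsp, -0.47 to 0.18 for Myf5, -0.27 to 0.15 for Myod1, -0.11 to 0.82 for Pdgfrb, -0.054 to 1.22 for Plk1, -0.15 to 1.06 for Pola2, -0.18 to 1.05 for Tagln, -0.25 to 0.013 for Thy1, -0.081 to 0.62 for Tubb3 and -0.30 to 0.34 for Zap70.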
